A study of Rattus norvegicus with 8 samples.

Results

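The genes described here are 33 carriers of amino acids, nucleosides, phosphate, chloride, zinc, organic ions and prostaglandins, chosen by gene symbol from the solute carrier (Slc) and organic anion carrier (Slco) families. They are 33 of the 14217 rat genes that had a probe set of their own on the array, and all 33 were measured, by 48 probe sets. A gene with several probe sets was represented by the one with the highest mean over all arrays, and the others are given beside it. The samples were atrial appendages, set against ventricular free walls, of 13 male Sprague-Dawley rats of 225 to 275 g, which were normal animals with no treatment or altered gene. RNA came from 4 pools of atrial tissue and 4 pools of ventricular tissue, and each pool was hybridised to 1 Affymetrix Rat Genome array, 8 in all. A replicate is therefore a pool, the labels do not say which animals went into it, and that the tissue was from the left side of the heart is known from the study's methods and not from the labels. Values are log2 signal intensities, so a difference of 1 is a doubling of signal, and every difference is atrium minus ventricle.

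Cells take up amino acids and other polar solutes through such carriers because these molecules hardly cross a lipid membrane. Some carriers use the sodium gradient to concentrate their substrate, some exchange a substrate for another, and some only let it run down its gradient, and several work only as a pair of a light chain and a heavy chain. Heart muscle is known for a large pool of free taurine, glutamate and glutamine, for its dependence on carnitine taken from the blood, and for fast uptake of adenosine.

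The arrays carried the pattern of their labelled chambers. All 7 atrial cardiomyocyte markers (among them Nppa, Myl4 and Myl7) were called higher in the atrium, at a mean level over the list of 10.72 to 11.03 on the atrial arrays and 6.38 to 6.97 on the ventricular arrays. Of 7 ventricular cardiomyocyte markers, 6 were called lower in the atrium, at 7.32, 6.09, 6.41 and 7.62 on atrial arrays 1 to 4 and 9.52 to 9.60 on the ventricular arrays. In this list the spread between atrial arrays was widest for Myl2 and Myl3. On atrial arrays 1 to 4 Myl2 read 10.48, 4.32, 6.82 and 11.30, and Myl3 read 9.93, 8.06, 7.75 and 10.43. The cause of this spread was not tested. Other cell types differed as well. Mesothelial markers (6 of 8 called higher in the atrium, 2 lower) stood at 6.48 to 7.32 in the atrium and 4.03 to 4.24 in the ventricle, and adipocyte markers (4 of 7 higher, 0 lower) at 5.89, 7.02, 6.53 and 8.16 on atrial arrays 1 to 4 and 5.23 to 5.38 in the ventricle. Endothelial markers (9 of 12 lower, 1 higher) stood at 8.0 to 8.03 in the atrium and 8.54 to 8.67 in the ventricle, and pericyte markers (8 of 9 lower, 0 higher) at 6.58 to 6.73 in the atrium and 7.43 to 7.48 in the ventricle. Fibroblast markers (10 of 12 higher, 0 lower) stood at 9.87 to 10.08 in the atrium and 9.46 to 9.65 in the ventricle, and markers of leukocytes (6 of 13 higher, 2 lower) at 5.96 to 6.21 in the atrium and 5.88 to 6.09 in the ventricle. The part of these cell types in the differences between carriers was not tested, and in tissue RNA fewer cells of a type cannot be told apart from less RNA per cell.

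Among the 33 carriers, 8 were called higher in the atrium and 10 lower, at an adjusted p under 0.05 by limma over all 31042 probe sets. That is 24.2% of the carriers higher, beside 22.5% of all 14217 genes, and 30.3% lower, also beside 22.5%, so the share called was near the background in the first direction and somewhat above it in the other. The carriers were chosen with earlier results of these data known. The shares and sizes given here therefore describe the chosen list, and no excess over all genes was tested. The study's thresholds, an adjusted p under 0.0001 and a fold of at least 1.8, were applied to the limma results. Slc7a7 and Slco2a1 passed as higher (6.06% of the carriers, beside 3.37% of all genes) and Slc38a3, Slc12a7 and Slc28a2 as lower (9.09%, beside 2.53%). With SAM, the study's own test, Slc1a3 passed as higher too. For 8 carriers each atrial array lay above each ventricular array (22.2% of all genes did so), for 10 each lay below (21.9% of all genes), and for 15 the arrays of the tissues overlapped. The median difference over the carriers was -0.01, beside -0.04 over all genes, and the median size of the difference was 0.36, beside 0.20 over all genes. Of the 48 probe sets, 11 were called higher and 16 lower, beside 21.8% and 20.8% of all 20826 probe sets with a gene of their own. Of the 12 carriers with several probe sets, 5 had all of them called the same way, 5 had some called, 2 had none called, and 0 had opposite calls. Both tissue means were under a log2 of 4, a range that holds 38.2% of all values, for Slc7a2, Slc7a10, Slc38a4, Slc22a4, Slc13a3 and Slc15a2, and the size of a difference is not read there.

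**Figure D1:**
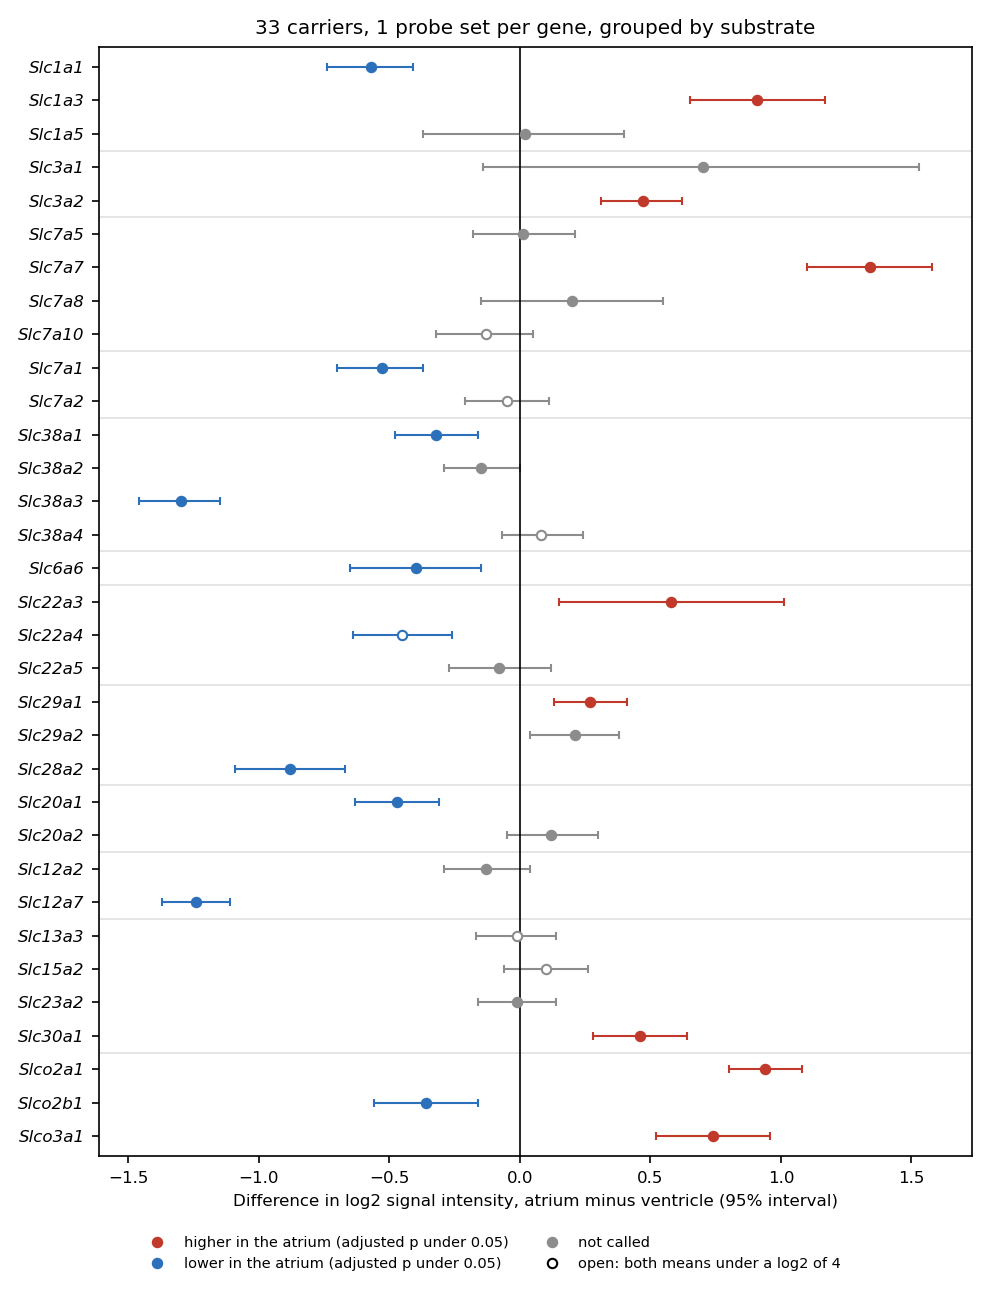
Difference in log2 signal intensity, atrium minus ventricle, for the 33 carriers (1 probe set each, 4 arrays per tissue), in blocks by substrate, with the 95% interval from limma as bars. Points in red (8 carriers, right of 0) were called higher in the atrium, points in blue (10, left of 0) lower, grey points were not called, and open points had both means under a log2 of 4. The differences run between -1.30 for Slc38a3 and 1.34 for Slc7a7.

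The 3 carriers of acidic and small neutral amino acids of the Slc1 family gave 3 different results. Slc1a3, the sodium-driven glutamate and aspartate carrier best known from glia (GLAST), was higher in the atrium by 0.91 (SE 0.12, 1.88-fold, adjusted p = 1.3e-04, and 0.46 as the mean of its probe sets), while Slc1a1, the carrier of glutamate, aspartate and cysteine known from neurons and kidney (EAAC1), was lower by 0.57 on the log2 scale (-0.57, SE 0.07, 1.49-fold, adjusted p = 1.4e-04). Slc1a3 (probe set 1368565_at) read 5.54, 5.58, 5.38 and 5.96 on the 4 atrial arrays and 4.84, 4.66, 4.54 and 4.76 on the ventricular arrays. Slc1a1 (1387932_at) read 4.57, 4.69, 4.51 and 4.65 in the atrium and 5.19, 5.03, 5.32 and 5.18 in the ventricle. On these probe sets the arrays of the tissues did not overlap, and the order of the tissues was opposite for these glutamate carriers. On the other probe sets of Slc1a3 the arrays did overlap. The second probe set of Slc1a1 was also lower (-0.48, adjusted p = 2.8e-04), and of the other probe sets of Slc1a3, 1388064_a_at was higher (0.45, adjusted p = 0.0075) and 1371130_at, with means of 3.12 in the atrium and 3.1 in the ventricle, was not called (0.02, adjusted p = 0.86). Slc1a5, the exchanger of glutamine and other small neutral amino acids (ASCT2), read 6.04, 6.27, 6.10 and 6.99 in the atrium and 6.37, 6.33, 6.26 and 6.39 in the ventricle. Atrial array 4 lay above all ventricular arrays, array 2 within their range and arrays 1 and 3 below it. The difference of 0.02 had an interval of -0.37 to 0.40 (adjusted p = 0.95) and was -0.20 without atrial array 4 (adjusted p = 0.051).

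Of the heavy chains that carry a light chain of the Slc7 family to the membrane, Slc3a2 (4F2hc, CD98), the partner of several light chains, was higher in the atrium by 0.47 (SE 0.07, 1.38-fold, adjusted p = 4.0e-04). It read 8.55, 8.32, 8.43 and 8.34 in the atrium and 7.85, 8.01, 7.94 and 7.98 in the ventricle, with no overlap. Slc3a1 (rBAT), the heavy chain of cystine and dibasic amino acid uptake in kidney and intestine and a gene of human cystinuria, read 8.01, 6.71, 8.20 and 8.24 in the atrium and 7.27, 6.10, 7.56 and 7.45 in the ventricle. Replicate 2 was the lowest in each tissue, by 1.30 in the atrium and 1.16 in the ventricle, and the tissues overlapped. Its difference of 0.70 had an interval of -0.14 to 1.53 (adjusted p = 0.17), and within the 4 replicate numbers the differences were 0.74, 0.61, 0.64 and 0.79. Without atrial replicate 2 the difference was 1.06 (adjusted p = 0.022), and without ventricular replicate 2 it was 0.37 (adjusted p = 0.41). Only 3 of the 31042 probe sets had both replicate 2 arrays lower than the other arrays of their tissue by at least 1, the other 2 being unnamed, and 0 had both higher. Prepl, whose annotated span overlaps that of Slc3a1, read 8.65, 8.83, 8.64 and 8.37 in the atrium and 8.44, 8.51, 8.18 and 8.28 in the ventricle, so replicate 2 was not low there. Slc7a9, the light chain that rBAT is known to pair with, had means of 2.75 in the atrium and 2.69 in the ventricle (0.06, adjusted p = 0.47), both near the low end.

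The light chains that pair with 4F2hc did not move as a block. Slc7a7 (y+LAT1), which exchanges cationic for neutral amino acids and is the gene of human lysinuric protein intolerance, had the most positive difference of the 33 carriers, 1.34 (SE 0.11, 2.54-fold, adjusted p = 4.9e-06). It read 6.04, 5.90, 5.98 and 5.72 in the atrium and 4.71, 4.30, 4.76 and 4.49 in the ventricle, so its lowest atrial array was nearly 1 log2 unit above the highest ventricular array. Slc7a5 (LAT1), the exchanger of large neutral amino acids, read 4.92, 4.58, 4.88 and 4.88 in the atrium and 4.95, 4.78, 4.68 and 4.79 in the ventricle (0.01, interval -0.18 to 0.21, adjusted p = 0.91). Slc7a8 (LAT2), of similar substrates, read 5.21, 5.02, 4.48 and 5.07 in the atrium and 4.75, 4.42, 4.92 and 4.89 in the ventricle (0.20, interval -0.15 to 0.55, adjusted p = 0.34), and passed without atrial array 3, its lowest (0.36, adjusted p = 0.046). The arrays of the tissues overlapped for both genes. Slc7a10 (Asc-1), the carrier of glycine, serine and alanine known from brain and adipocytes, was near the low end with means of 3.32 in the atrium and 3.45 in the ventricle (-0.13, adjusted p = 0.22, and -0.21, adjusted p = 0.048, without ventricular array 2).

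**Figure D2:**
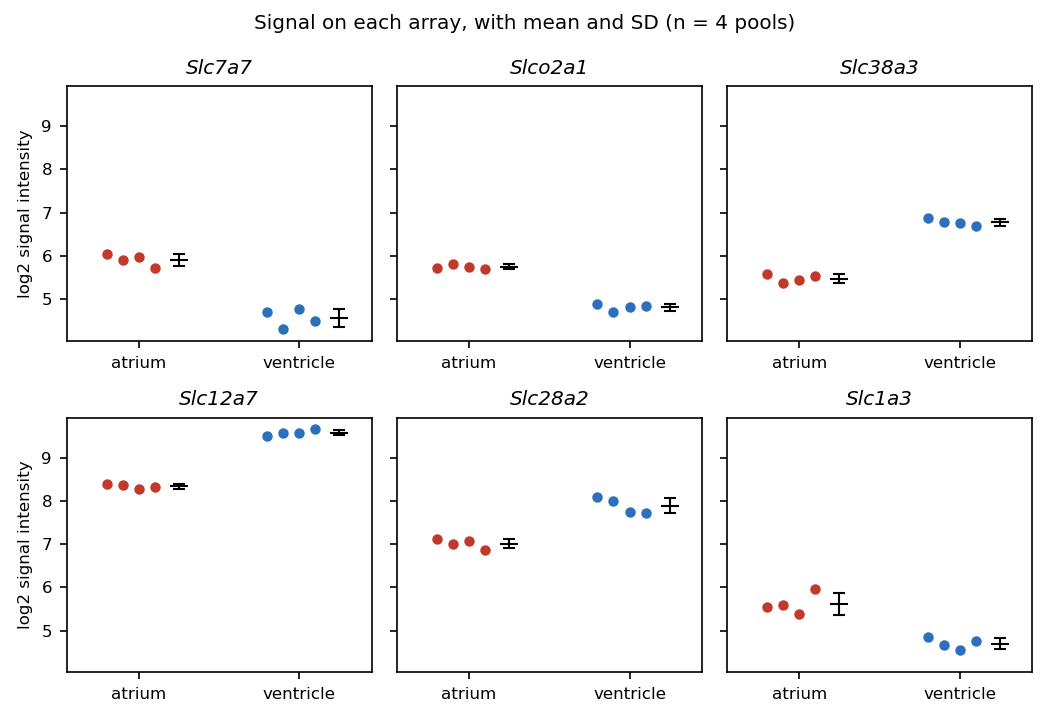
Log2 signal intensity of 6 carriers on each array, the 4 atrial arrays left of the 4 ventricular arrays in each panel, with the mean and SD per tissue. Slc7a7, Slco2a1 and Slc1a3 lie higher in the atrium and Slc38a3, Slc12a7 and Slc28a2 lower, and in each of the 6 panels the arrays of the tissues do not overlap.

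Slc7a1 and Slc7a2, carriers of cationic amino acids, and the 4 Slc38 carriers among the 33 were called lower in the atrium or not at all. Slc38a10, outside the 33, was higher (0.28, adjusted p = 0.019). Slc7a1 (CAT1), the main arginine and lysine carrier of most cells, was lower (-0.53, SE 0.07, 1.45-fold, adjusted p = 2.4e-04), at 5.86, 5.95, 5.93 and 6.16 in the atrium and 6.52, 6.52, 6.56 and 6.43 in the ventricle. Its probe set 1368391_at was lower too (-0.65, adjusted p = 2.2e-04), and 1387167_at, near the low end, was not called (-0.10, adjusted p = 0.35). Slc7a2 (CAT2) was near the low end, with means of 2.92 in the atrium and 2.97 in the ventricle (-0.05, adjusted p = 0.61).

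Slc38a3 (SNAT3), which carries glutamine with sodium against protons and is known from liver, kidney and astrocytes, had the most negative difference of the 33 carriers, -1.30 (SE 0.07, 2.47-fold, adjusted p = 2.6e-07). It read 5.58, 5.36, 5.43 and 5.53 in the atrium and 6.88, 6.79, 6.75 and 6.69 in the ventricle, a gap of more than 1 log2 unit between the tissues. The sodium-coupled carriers of system A, which concentrate alanine and glutamine, differed by less. Slc38a1 (SNAT1) was lower in the atrium by its probe sets 1372921_at (-0.32, adjusted p = 0.005) and 1370409_at (-0.42, adjusted p = 7.3e-04), and 1390559_at was not called (-0.07, adjusted p = 0.56). Probe set 1372921_at read 7.71, 7.73, 7.81 and 7.57 in the atrium and 8.06, 8.07, 7.90 and 8.06 in the ventricle. Slc38a2 (SNAT2), which cells are known to induce on amino acid shortage, read 9.78, 9.89, 9.94 and 9.73 in the atrium and 9.99, 9.96, 9.97 and 10.00 in the ventricle (-0.15, interval -0.29 to -0.00, adjusted p = 0.094). Its atrial arrays all lay below its ventricular arrays, and it passed the threshold with loess (-0.19, adjusted p = 0.024) and quantile scaling (-0.17, adjusted p = 0.048). Slc38a4 (SNAT4), known from liver and placenta, was near the low end, with means of 3.21 in the atrium and 3.13 in the ventricle (0.08, adjusted p = 0.36).

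Several carriers are known targets of ATF4, a factor made when amino acids run short, and the windows from 250 bases before to 50 after the start of each gene (RefSeq, build GRCr8) were searched on both strands for its composite site, written as TGATGNAA. A window was found for 27 of the 33 carriers. The letters occur in 3.98% of 33469 windows and in 3 of the 30 windows of the carriers. These 3 belong to Slc38a1 (chr7:129681352-129681651, minus strand) and Slc7a1 (chr12:11664238-11664537, plus strand), which were lower in the atrium, and Slco2a1 (chr8:112467489-112467788, plus strand), which was higher. The windows are shown 5′ to 3′ on the gene's strand to compare these matches, with the match in capitals. It begins 142 bases before the start in Slc38a1, 30 in Slc7a1 and 92 in Slco2a1, where it lies on the opposite strand.
Slc38a1: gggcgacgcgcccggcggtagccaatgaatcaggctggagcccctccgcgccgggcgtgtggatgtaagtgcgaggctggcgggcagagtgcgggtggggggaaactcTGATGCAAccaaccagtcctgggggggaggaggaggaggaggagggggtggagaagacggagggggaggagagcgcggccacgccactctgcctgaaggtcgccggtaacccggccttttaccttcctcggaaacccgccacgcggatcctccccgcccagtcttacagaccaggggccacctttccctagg
Slc7a1: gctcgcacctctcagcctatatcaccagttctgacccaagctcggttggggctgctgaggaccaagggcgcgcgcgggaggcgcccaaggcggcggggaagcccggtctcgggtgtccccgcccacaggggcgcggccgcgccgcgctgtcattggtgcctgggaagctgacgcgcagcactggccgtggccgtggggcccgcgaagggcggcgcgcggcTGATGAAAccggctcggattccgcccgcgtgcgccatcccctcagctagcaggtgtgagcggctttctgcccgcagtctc
Slco2a1: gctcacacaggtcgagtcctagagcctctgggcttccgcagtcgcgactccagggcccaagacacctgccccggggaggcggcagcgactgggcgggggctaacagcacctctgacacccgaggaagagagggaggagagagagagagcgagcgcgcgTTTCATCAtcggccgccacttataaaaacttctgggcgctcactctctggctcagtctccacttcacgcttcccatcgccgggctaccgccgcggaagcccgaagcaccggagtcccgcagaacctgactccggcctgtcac
The letters are a description of the window, and no binding was measured. Of 27 genes of amino acid sensing and the ATF4 response, 6 were called higher in the atrium, 3 lower and 18 not called, with a median difference of 0.01. With loess or quantile scaling of the arrays, 4 were higher and 5 lower, so the balance of this list turned with the scaling. Eif4ebp1, an inhibitor of translation, was higher by 0.52 (adjusted p = 8.4e-05), and Eif2s1, a subunit of the initiation factor eIF2, by 0.40. Rragd, a GTPase that brings mTORC1 to the lysosome, was lower (-0.87, adjusted p = 6.5e-06), as was Ddit3, a stress factor induced by ATF4 (-0.64, adjusted p = 1.3e-05). Atf4 itself had means of 9.64 in the atrium and 9.63 in the ventricle (0.01, adjusted p = 0.9).

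Taurine, an osmolyte and the most abundant free amino acid of the heart in many mammals, enters through Slc6a6 (TauT). Slc6a6 was lower in the atrium on both of its probe sets, by 1374531_at (-0.40, SE 0.11, 1.32-fold, adjusted p = 0.016) and 1368778_at (-0.57, adjusted p = 0.0031). The first read 8.26, 8.02, 8.04 and 7.78 in the atrium and 8.51, 8.63, 8.24 and 8.32 in the ventricle, so the highest atrial array lay just above the lowest ventricular array. The enzymes of taurine synthesis did not all go the same way. Cdo1, cysteine dioxygenase, read 7.64, 8.93, 8.0 and 9.78 in the atrium and 5.46, 5.26, 5.49 and 5.77 in the ventricle (3.09, SE 0.38, adjusted p = 8.7e-05). Its atrial arrays followed the order of the adipocyte markers, which genes can share by chance. Csad, which follows Cdo1 in taurine synthesis and was picked after its values had been seen, read 6.14, 6.42, 5.99 and 6.57 in the atrium and 4.85, 5.18, 4.92 and 4.93 in the ventricle (1.31, adjusted p = 1.4e-05). The atrial arrays of Csad did not follow that order, and the part of adipocytes was not tested. Fmo1, which oxidises hypotaurine to taurine, was lower (-0.41, adjusted p = 0.018), and Gadl1, a decarboxylase related to Csad, was not called (0.70, adjusted p = 0.079). Over the 25 enzymes of glutamate, glutamine, arginine and taurine that were measured, 9 were higher, 10 lower and 6 not called, with a median of -0.12. Asns, asparagine synthetase, was higher by 1.8 (adjusted p = 4.5e-05), and Nos3, the endothelial nitric oxide synthase (-0.91, adjusted p = 1.2e-04), and Gpt, alanine aminotransferase (-0.88, adjusted p = 2.0e-04), were lower.

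Of 33 other amino acid carriers that were measured, 2 were called higher in the atrium, 6 lower and 25 not called, with a median of -0.12, and 19 had both means near the low end. Slc43a1, a carrier of large neutral amino acids, was higher by 0.45 (adjusted p = 0.0038) and Slc38a10 by 0.28 (adjusted p = 0.019). Slc6a8, the creatine carrier, was lower (-0.78, adjusted p = 3.0e-06), with means of 8.78 in the atrium and 9.56 in the ventricle, and so was Slc6a17, a carrier of neutral amino acids known from synaptic vesicles (-0.78, adjusted p = 7.4e-05).

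Of the 3 nucleoside carriers, 1 was called lower in the atrium, 1 higher and 1 not called. Slc28a2 (CNT2), which concentrates purine nucleosides such as adenosine with sodium, was lower in the atrium (-0.88, SE 0.10, 1.84-fold, adjusted p = 3.7e-05), at 7.12, 7.0, 7.07 and 6.86 in the atrium and 8.09, 7.99, 7.75 and 7.73 in the ventricle. Slc29a1 (ENT1), which lets nucleosides run down their gradient, was higher by 0.27 (SE 0.06, 1.2-fold, adjusted p = 0.0068), at 7.92, 8.09, 8.11 and 8.01 in the atrium and 7.75, 7.80, 7.72 and 7.80 in the ventricle. In neither gene did the tissues overlap. Slc29a2 (ENT2) was not called on either probe set (0.21, adjusted p = 0.054, and -0.11, adjusted p = 0.27), and the first passed without ventricular array 1 (0.25, adjusted p = 0.041). Of 17 nucleoside and adenosine enzymes, 2 were higher, 7 lower and 8 not called, with a median of -0.14. Ada, adenosine deaminase, was lower (-1.16, adjusted p = 3.4e-06), as was Ampd3, an AMP deaminase (-1.12, adjusted p = 2.6e-07), while Nt5c2, a cytosolic nucleotidase, was higher by 1.15 (adjusted p = 8.4e-06) and Ahcy, which splits adenosylhomocysteine, by 0.57 (adjusted p = 1.5e-04).

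Among the organic cation and carnitine carriers, Slc22a3 (OCT3), a low-affinity carrier of catecholamines and other cations, read 6.30, 6.78, 6.67 and 7.37 in the atrium and 6.05, 6.41, 5.97 and 6.36 in the ventricle. The lowest atrial array lay within the ventricular range and atrial array 4 lay above all others. The difference was 0.58 (SE 0.19, 1.5-fold, adjusted p = 0.036), the largest adjusted p of the 18 calls. The difference fell to 0.39 without atrial array 4 (adjusted p = 0.045), and the call was lost without atrial array 2 (adjusted p = 0.071) or 3 (0.056) or ventricular array 1 (0.087) or 3 (0.095). The 4 atrial arrays of Slc22a3 ran in the same order as the adipocyte markers (array 4 highest, then 2, 3 and 1), as did those of Slc1a5 and Slc7a1, and those of Slc7a7, Slc6a6 and Slc28a2 ran in the reverse order. Genes can share an order of 4 arrays by chance. The share of all genes in these orders was not counted, and the part of adipocytes was not tested. Slc22a5 (OCTN2), the carnitine carrier of muscle, read 6.58, 6.53, 6.51 and 6.49 in the atrium and 6.65, 6.76, 6.33 and 6.69 in the ventricle (-0.08, interval -0.27 to 0.12, adjusted p = 0.52). Slc22a4 (OCTN1), the ergothioneine carrier, was called lower (adjusted p = 0.0018) but near the low end, with means of 3.08 in the atrium and 3.54 in the ventricle. Of 10 genes of carnitine handling, 1 was higher, 5 lower and 4 not called, with a median of -0.16. Cpt2 and Crat, the mitochondrial acyltransferases for long and short chains, were lower (-1.27, adjusted p = 6.8e-07, and -0.96, adjusted p = 6.4e-07), and Crot, the peroxisomal enzyme, was higher by 0.27 (adjusted p = 0.042). With loess or quantile scaling 0 of the 10 were higher and 5 lower.

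**Figure D3:**
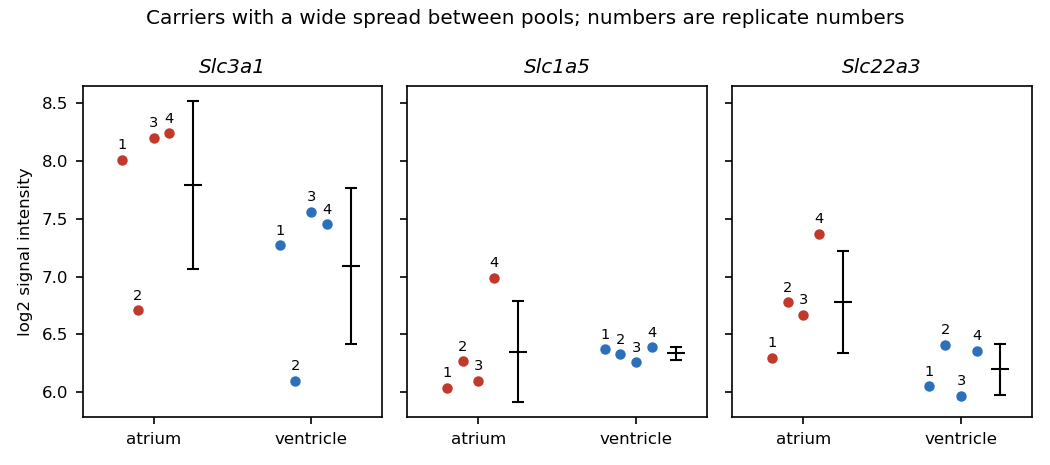
Log2 signal intensity of Slc3a1, Slc1a5 and Slc22a3 on each array, atrium left of ventricle, with each point marked by its replicate number. Replicate 2 of Slc3a1 is low in both tissues (6.71 in the atrium, 6.10 in the ventricle), and atrial replicate 4 of Slc1a5 (6.99) and Slc22a3 (7.37) lies above all other arrays.

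Of the phosphate carriers, which double as receptors for some retroviruses, Slc20a1 (PiT-1) was lower in the atrium (-0.47, SE 0.07, 1.38-fold, adjusted p = 4.9e-04), at 7.11, 7.40, 7.29 and 7.32 in the atrium and 7.70, 7.71, 7.81 and 7.76 in the ventricle. Slc20a2 (PiT-2) was not called on its brighter probe set (0.12, adjusted p = 0.25), with means of 7.86 in the atrium and 7.73 in the ventricle (0.19, adjusted p = 0.045, without atrial array 4), and was higher on the other, 1369234_at (0.26, adjusted p = 0.014). The second of these read 7.17, 7.12, 7.28 and 7.05 in the atrium and 6.90, 6.87, 6.81 and 7.0 in the ventricle, with no overlap.

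The potassium-chloride exporter Slc12a7 (KCC4) was lower in the atrium by 1371525_at (-1.24, SE 0.06, 2.36-fold, adjusted p = 1.3e-07), at 8.40, 8.36, 8.28 and 8.31 in the atrium and 9.51, 9.57, 9.56 and 9.66 in the ventricle, and by the dimmer 1391796_at (-0.47, adjusted p = 3.7e-04), at 4.61, 4.34, 4.46 and 4.43 in the atrium and 5.01, 4.87, 4.91 and 4.94 in the ventricle. The tissues were apart on both probe sets, by different sizes. Slc12a2 (NKCC1), which brings chloride in with sodium and potassium, had means of 8.84 in the atrium and 8.97 in the ventricle (-0.13, interval -0.29 to 0.04, adjusted p = 0.21). Of 12 genes of chloride carrier kinases and cell volume, a list that also holds Nfat5, Akr1b1 and the inositol carrier Slc5a3, 1 was higher, 5 lower and 6 not called, with a median of -0.03. Stk39 (SPAK), the kinase that switches these carriers, was higher by 0.36 (adjusted p = 0.018), and Lrrc8c and Lrrc8a, subunits of the volume-regulated anion channel, which also lets taurine out, were lower (-0.80, adjusted p = 2.3e-05, and -0.54, adjusted p = 4.7e-05).

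The 3 prostaglandin and organic anion carriers among the 33 were all called, beside 22.5% of all genes in each direction. Among the other carriers set beside the 33, Slco1a4, Slco1a5, Slco1b2, Slco1c1, Slco4a1 and Slco5a1 were not called (adjusted p 0.097 to 0.78). All of them but Slco5a1 were near the low end. Slco2a1, the prostaglandin carrier (PGT) that clears PGE2 and related lipids from outside the cell, was higher in the atrium by 0.94 (SE 0.06, 1.92-fold, adjusted p = 1.4e-06), at 5.72, 5.82, 5.75 and 5.69 in the atrium and 4.88, 4.69, 4.82 and 4.84 in the ventricle. Its other probe set, near the low end, was not called (0.17, adjusted p = 0.17), and the mean of both differed by 0.55 (adjusted p = 7.2e-05). Slco2a1 is known from endothelium, of whose 12 markers 9 were lower in the atrium and 1, Vwf, was higher (0.93, adjusted p = 9.3e-06), and the part of these cells in its difference was not tested. Slco3a1, an organic anion carrier that also takes prostaglandins, was higher on both probe sets (0.74, adjusted p = 1.8e-04, and 0.63, adjusted p = 4.4e-04), and 1373734_at read 9.57, 9.48, 9.47 and 9.12 in the atrium and 8.73, 8.76, 8.65 and 8.53 in the ventricle. Slco2b1, a carrier of steroid sulfates and many drugs, was lower on both (-0.36, adjusted p = 0.0094, and -0.31, adjusted p = 0.0053), and 1368295_at read 6.97, 6.85, 7.19 and 6.92 in the atrium and 7.35, 7.21, 7.51 and 7.30 in the ventricle. Of 12 genes of prostaglandin synthesis and breakdown, 8 were higher in the atrium, 2 lower and 2 not called, with a median of 0.43. Ptgds, prostaglandin D synthase, was higher by 1.93 (adjusted p = 1.9e-05) and Ptgs1, cyclooxygenase-1, by 1.08 (adjusted p = 1.4e-04), while Cbr1, a carbonyl reductase of prostaglandins, was lower (-0.66, adjusted p = 6.3e-05), as was Ptges2 (-0.36, adjusted p = 0.0018).

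**Figure D4:**
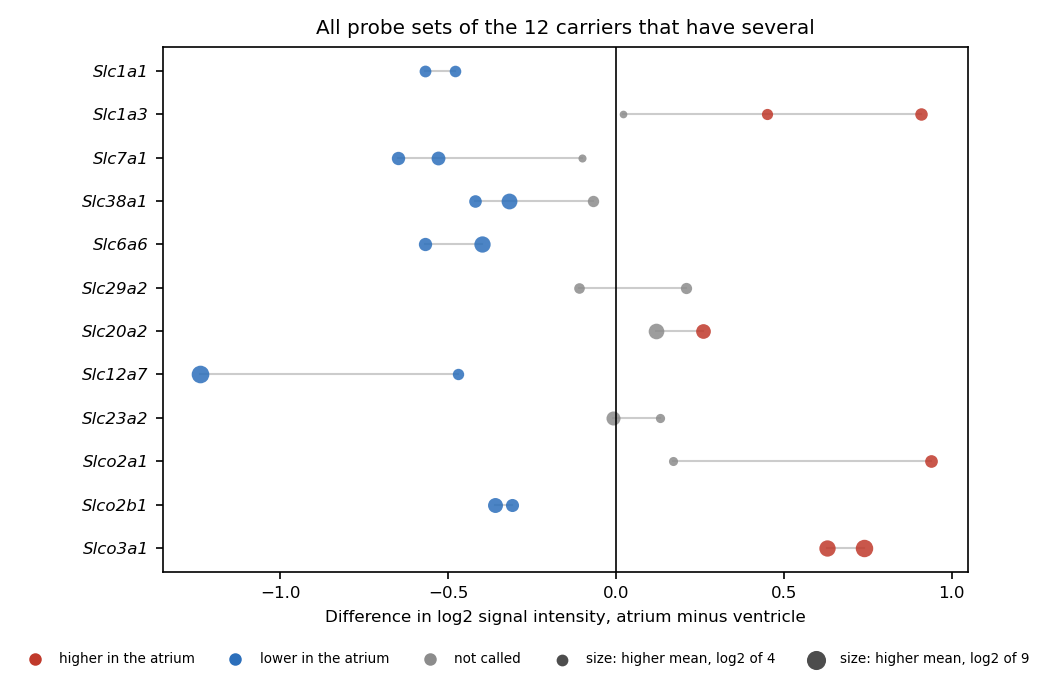
Difference in log2 signal intensity, atrium minus ventricle, of all probe sets of the 12 carriers that have several, joined by a line per gene, with point size by the higher of the tissue means. In 5 carriers all probe sets were called the same way, and in 0 were calls opposite. The pairs of Slc29a2 (0.21 and -0.11) and Slc23a2 (-0.01 and 0.13), none of them called, lie on both sides of 0.

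The remaining carriers have other substrates. Slc30a1 (ZnT1), which exports zinc and is induced by it, was higher in the atrium by 0.46 (SE 0.08, 1.38-fold, adjusted p = 0.0011), at 5.66, 5.77, 5.93 and 5.63 in the atrium and 5.28, 5.29, 5.39 and 5.18 in the ventricle, with no overlap. Slc23a2 (SVCT2), the ascorbate carrier, was not called on either probe set, with means of 6.66 in the atrium and 6.67 in the ventricle on the brighter (-0.01, interval -0.16 to 0.14, adjusted p = 0.92). Slc13a3 (NaDC3), a carrier of succinate and other dicarboxylates, and Slc15a2 (PEPT2), a peptide carrier, were near the low end and not called (-0.01, adjusted p = 0.92, and 0.10, adjusted p = 0.28). The window of Slc30a1 (chr13:106021769-106022068, plus strand) is shown because zinc is known, from mouse, to act on this gene through metal response elements, searched on both strands as TGCACNC or TGCGCNC. It holds 2 matches, in capitals, the first 91 bases before the start, both on the opposite strand.
Slc30a1: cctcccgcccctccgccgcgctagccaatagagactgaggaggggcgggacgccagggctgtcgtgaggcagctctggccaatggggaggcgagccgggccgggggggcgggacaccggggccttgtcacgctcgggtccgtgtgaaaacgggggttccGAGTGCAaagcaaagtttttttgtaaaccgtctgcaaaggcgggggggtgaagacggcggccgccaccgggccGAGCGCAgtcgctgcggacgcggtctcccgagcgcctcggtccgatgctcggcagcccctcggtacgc
The letters are common, being in 24.2% of 33469 windows, in 13 of the 30 windows of the carriers and in 11 of the 27 carriers with a window. Of 61 other carriers of organic solutes, phosphate, chloride and zinc, 13 were higher, 6 lower and 42 not called, with a median of -0.04. With quantile scaling 11 were higher and 9 lower, and with loess 14 and 5, each with a median of 0.02. The zinc importers Slc39a8 (1.83, adjusted p = 5.1e-06) and Slc39a2 (1.30, adjusted p = 3.1e-07) had the most positive differences among them that were called, and Slc15a3, a peptide and histidine carrier of lysosomes (-0.97, adjusted p = 8.6e-06), and Slc44a2, a choline carrier (-0.62, adjusted p = 4.5e-05), the most negative.

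**Figure D5:**
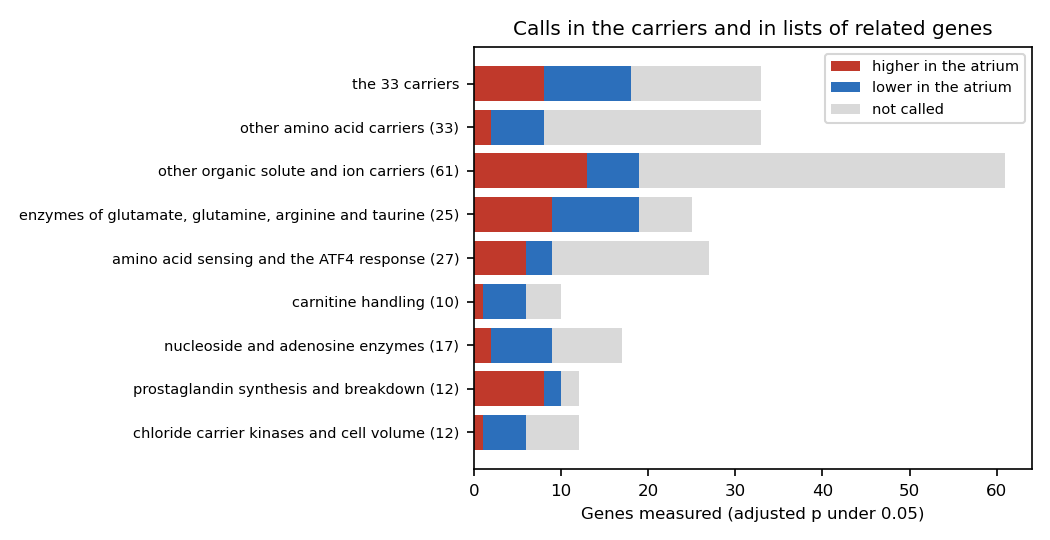
Calls in the gene lists set beside the carriers, with the number of genes higher in the atrium, lower and not called in each. Prostaglandin synthesis and breakdown has 8 of 12 genes higher and 2 lower. Carnitine handling has 5 of 10 lower and 1 higher, and nucleoside and adenosine enzymes have 7 of 17 lower and 2 higher. Of all genes, 22.5% were called in each direction. The lists were chosen with earlier results of these data known.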

How the data were processed

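Total RNA (10 µg per array) of 4 atrial and 4 ventricular pools was measured on 8 arrays. The authors summarised probe intensities by RMA, whose version is not given in the sources used here, and deposited 1 log2 signal intensity per array for each of 31042 probe sets, between 1.9 and 13.77, with array medians of 4.8 or 4.81. They were used without further scaling. The test was limma (version 3.58.1, R 4.3.3) on the difference of atrium minus ventricle, and p-values were adjusted by Benjamini-Hochberg across the whole array. The study thresholds are an FDR of 0.01% (adjusted p under 0.0001) together with a 1.8-fold difference (0.848 in log2). Precision rests on 4 arrays per tissue. Median SDs were 0.117 in the atria and 0.0986 in the ventricles.

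Gene symbols came from the platform annotation (20826 probe sets with 1 symbol, 436 with several, 9780 with none, 20758 checked by gene ID and 0 changed). The carriers and lists were chosen with earlier results of these data known. All carriers are named, with the value on every array for those past the study thresholds and the largest difference in each substrate group. Of each list up to 2 called genes per direction are named by rule, and Csad, Fmo1, Gadl1, Atf4, Slc7a9, Slc25a20, Vwf, Nfat5, Akr1b1, Slc5a3, Prepl and zinc carriers beyond Slc39a8 and Slc39a2 were named after their values had been seen. On simulated data with 50 probe sets changed by each fold, limma called 34 at 1.5 fold, 48 at 1.8 fold and 50 at 2 fold, and 8 of 30842 unchanged ones. At the study thresholds it called 17 at 1.8 fold and 23 at 2 fold. Few probe sets were changed there, while limma called 12034 in the data, so these rates need not hold for the data.

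The deviations of same-numbered pools from their tissue means had correlations of 0.134, 0.155, -0.148 and -0.188 for numbers 1 to 4. The pools were not treated as pairs. Alternatives were SAM (the methods' test, 70 arrangements), other scalings, filters and probe set rules, a replicate block, treat against a fold, and leaving out arrays. Figures used matplotlib 3.10.9 in Python 3.11.15.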

Additional observations from a re-analysis of the deposited data

Results flagged for a closer look

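In 5 of the 96 groups of 4 arrays checked (48 probe sets in each tissue), an array stood apart, the gap to the nearest other array, as a share of the whole range, being above the 95% critical value of Dixon's test. Chance alone sets about 1 in 20 such groups apart. Slc3a1 (1368440_at) was lowest on atrial replicate 2, at 6.71 against 8.01 to 8.24 on the other atrial arrays, a gap of 0.852 of the range. Slc7a5 was lowest on the same array, at 4.58 against 4.88 to 4.92 (0.867), and Slc38a4, near the low end, was highest there, at 3.38 against 3.13 to 3.16 (0.891). Slc38a1 (1372921_at) was lowest on ventricular replicate 3, at 7.90 against 8.06 to 8.07 (0.941), and of these 5 it alone belonged to a carrier called between the tissues. Slc23a2 (1376969_at) was highest on ventricular replicate 2, at 6.75 against 6.64 to 6.65 (0.849).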

How the results depend on the processing

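The differences of the 33 carriers were recomputed under 19 alternatives, 621 results in all, of which 596 kept their side of the threshold, 17 passed it and 8 lost it. No called difference changed sign (0), while some that were not called did, such as that of Slc1a5. Of the 18 called carriers, 16 stayed called throughout. Slc22a3 lost its call in 7 alternatives (adjusted p 0.056 to 0.095 in those 7, and 0.0064 to 0.095 over all 19), and Slco2b1 (adjusted p = 0.053) without atrial replicates 1 and 4 together, an alternative chosen after seeing the data, which also gave a median difference over the carriers of -0.07. With 1 array left out at a time, 7 to 9 carriers were higher and 10 to 11 lower, at the study thresholds 2 higher and 2 to 3 lower, and the median ran between -0.04 and 0.02. Slc38a2 passed in 4 alternatives (adjusted p 0.023 with SAM, 0.031 with trended and robust limma, 0.024 with loess, 0.048 with quantiles). Slc3a1 was called without atrial replicate 2 (1.06, adjusted p = 0.022). At the study thresholds 1 carrier was higher with the mean of the probe sets of a gene and 1 with treat against a fold of 1.8. With SAM, with trended and robust limma, and with adjustment over 1 probe set per gene, 3 were higher. The carrier added was Slc1a3 (adjusted p = 1.9e-05 with trended and robust limma, 9.9e-05 over 1 probe set per gene). With a replicate block, 9 carriers were higher and 10 lower, and Slc3a1 was called (0.70, adjusted p = 2.2e-04). The block moved the probe sets called to 10923, against 12034 without it. Of the 4 atrial arrays, 2 correlated best with their own number, and arrays 3 and 4 with each other's number. The shared number is therefore only a hint, and a block by number may join the wrong pools. SAM called 10 carriers higher and 11 lower, with Slc3a1 among the higher (q = 0.036), and 17193 probe sets. Values near the low end limit what can be seen for 6 carriers.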

Other observations

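The zinc carrier families were drawn up after their values had been seen. Of 12 importers of the Slc39 family, 6 were called higher in the atrium, 2 lower and 4 not called, with a median difference of 0.19, and of 9 genes of the Slc30 family, to which the exporter Slc30a1 belongs, 4 were higher, 0 lower and 5 not called, with a median of 0.23, where 22.5% of all genes were called in each direction. With the arrays scaled to equal medians the Slc39 counts were 6 and 3, with loess 6 and 1, and with quantiles 5 and 3. In the Slc30 family 3 were higher with quantiles, with a median of 0.16. Slc30a7, among its 4 higher genes without scaling, was near the low end, with means of 3.99 in the atrium and 3.61 in the ventricle. Besides Slc39a8 and Slc39a2, Slc39a11 (0.92, adjusted p = 3.6e-06), Slc39a7 (0.90, adjusted p = 1.8e-05) and Slc39a13 (0.69, adjusted p = 8.7e-06) were higher, and Slc39a10 was lower (-0.53, adjusted p = 5.2e-05). Slc25a20, the carnitine-acylcarnitine carrier of mitochondria, was lower (-0.90, adjusted p = 2.3e-05).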
